A study of Mus musculus with 12 samples.

Results

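Astrocytes cultured from a mouse model of amyloid disease were compared with astrocytes from wild-type mice by RNA sequencing. The comparison rests on 4 of the 12 libraries of the series, which is concerned with O-GlcNAcylation, the attachment of single N-acetylglucosamine sugars to proteins inside the cell, and the reactive state of astrocytes. The AD model group (2 libraries) came from untreated C57BL/6 mice whose genotype is labelled 5X APP Alzheimer's mice model, and the AD control group (2 libraries) from untreated wild-type C57BL/6 mice. The sample labels give an age of 6 months for both groups, whereas the series text gives 5 months. Cortex and hippocampus were dissociated with enzymes and the cells were grown in culture. No cell sorting is described, and neither the alleles nor the promoter of the transgene is given in the labels. Nothing in the labels says whether the 2 libraries of a group came from separate mice, so p-values measure the spread between these libraries, which may be technical.

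Of 54532 genes in the table, 12911 had at least 1 FPKM (fragments scaled to the length of the gene and the size of the library) in at least 2 of the 4 libraries and were compared as log2(FPKM + 1). Of these, 11718 were protein coding. Just inside this limit lay Pard3b, with 1 and 1.12 FPKM in the controls and 0.649 and 0.472 in the AD model, and just outside it Cd69, whose second highest value was 0.999 FPKM. Of the genes kept, 424 passed only through the AD model libraries and 230 only through the controls, so that these had to differ between the groups. The 4 libraries held between 16418852 and 17408855 reads, recovered from the deposited values.

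Astrocytes support neurons and synapses, clear transmitters and keep up the blood-brain barrier, and they become reactive around amyloid deposits. In culture, reactive astrocytes and microglia answer to type I interferon through transcription factors that bind a DNA element of paired GAAA repeats, and to inflammatory cytokines through NF-kB, which binds kB sites. Interferon-stimulated genes, antigen presentation genes and chemokines are the best known targets of these 2 routes.

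Promoters of 5 genes that were higher in the AD model are shown because they carry such elements. Each is the 150 bases before the RefSeq transcript start in build GRCm38.p6, read 5′ to 3′ on the strand of the gene. Capitals mark the ISRE-type motif GAAANNGAAA (reverse TTTCNNTTTC) in Ifit1, Isg15 and B2m, and the kB-type motif GGGNNTTTCC (reverse GGAAANNCCC) in B2m, Cxcl1 and Cxcl2. Ifit1 is at chr19:34640739-34640888 (+ strand), Isg15 at chr4:156200819-156200968 (- strand), B2m at chr2:122147537-122147686 (+ strand), Cxcl1 at chr5:90891095-90891244 (+ strand) and Cxcl2 at chr5:90903749-90903898 (+ strand).
Ifit1: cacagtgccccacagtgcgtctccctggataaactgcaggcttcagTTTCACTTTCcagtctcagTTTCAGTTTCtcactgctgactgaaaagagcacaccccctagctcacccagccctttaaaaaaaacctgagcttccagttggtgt
Isg15: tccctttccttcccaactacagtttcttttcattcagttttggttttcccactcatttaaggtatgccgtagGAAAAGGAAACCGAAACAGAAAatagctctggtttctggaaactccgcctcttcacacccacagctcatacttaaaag
B2m: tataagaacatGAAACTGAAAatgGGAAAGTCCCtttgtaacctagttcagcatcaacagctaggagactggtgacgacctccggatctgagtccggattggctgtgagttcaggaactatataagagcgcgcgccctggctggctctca
Cxcl1: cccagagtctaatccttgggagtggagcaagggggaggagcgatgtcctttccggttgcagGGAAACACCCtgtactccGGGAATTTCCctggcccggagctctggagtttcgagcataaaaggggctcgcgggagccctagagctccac
Cxcl2: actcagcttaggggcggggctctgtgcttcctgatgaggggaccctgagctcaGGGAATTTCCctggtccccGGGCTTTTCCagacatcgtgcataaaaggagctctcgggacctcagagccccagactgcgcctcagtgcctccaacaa

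Isg15 held 3 overlapping ISRE-type matches, the first of them 78 bases before the start. Ifit1 held 2, at 104 and 85 bases. In B2m, which encodes the light chain of MHC class I, an ISRE-type match at 139 bases and a kB-type match at 126 bases lay 3 bases apart. Cxcl1 and Cxcl2, neighbouring chemokine genes on chromosome 5, each held 2 kB-type matches. Over windows from 250 bases before to 50 bases after the start, searched on both strands, 53 of 229 genes called higher held the ISRE-type motif in at least 1 window (23.1%), against 361 of 9431 genes tested (3.83%). The kB-type motif was held by 19 of the 229 (8.3%) and by 186 of the 9431 (1.97%). All 9 guanylate-binding protein and immunity-related GTPase genes with a window held the ISRE-type motif, as did 13 of 23 interferon-stimulated genes, while 6 of 16 NF-kB subunit and feedback genes held the kB-type motif. The ISRE-type motif was also held by 4 of 25 cytosolic ribosomal protein genes (16.0%), none of which was called, and by 3 of 40 genes called lower (7.5%). Among all 32851 windows of the RefSeq table, 3.44% held the first motif and 1.63% the second. These are matches of letters, and no binding was measured.

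The difference between the groups was set against the gap between the replicates of each group. In 2232 genes both AD model libraries lay above both controls by a mean difference larger than either replicate gap (17.3% of genes tested), and in 2333 they lay below in the same way (18.1%). In a further 1304 genes the groups were apart but a replicate gap was larger than the difference (10.1%), and in 7042 the groups overlapped (54.5%). The median size of the group difference was 0.26 on the log2 scale, and the median replicate gap was 0.29 in each group. Limma with Benjamini-Hochberg adjustment called 304 genes higher (2.35%) and 60 lower (0.465%) in the AD model at an adjusted p under 0.05. All 364 had a difference over both gaps and of at least 1 on the log2 scale, and 111 of them had passed the filter only through the AD model libraries. The latter holds for every called gene below with both controls under 1 FPKM, which could only be higher. List counts below are to be read against the shares in this paragraph. On simulated data the fit made more false calls than the nominal share, most of them in short genes with a mean under 20 reads. Of such genes there were 2 among the 364. The simulation gave every gene the same added spread, independent between libraries. It therefore cannot show that false calls are confined to those 2.

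The number of calls depended on single libraries. Leaving out AD model replicate 1 left 101 calls, leaving out AD control replicate 1 left 64, and leaving out AD control replicate 2 left 34. Without AD model replicate 2 limma called 0 genes, with 1667 at an unadjusted p under 0.05. With 1 library in a group, 1 residual degree of freedom is left and that library is assumed to vary like the other pair. Fewer calls then need not mean smaller differences. Calls named below carry this limit. A fit over all 12 libraries of the series, which share one estimate of the spread, gave more calls. Its counts are given where they differ by over 1.5 times. An earlier account of these data gave lower replicate correlation for the AD groups than for the other groups. A spread shared by all 12 libraries may therefore be too small here, so these larger counts are no support for a list.

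**Figure D1:**
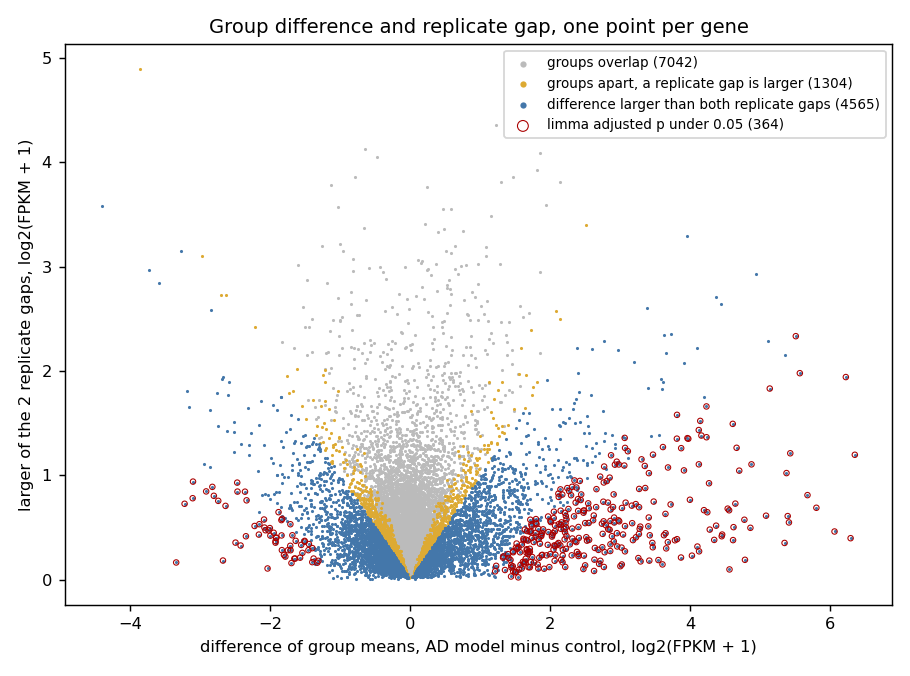
Group difference (x axis, AD model minus control, log2(FPKM + 1)) against the larger of the 2 replicate gaps (y axis, same unit), 1 point per gene. The 364 genes called by limma (red circles) lie where the difference is large and the gap small, 304 to the right and 60 to the left.

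The 10 called genes with the largest rises among those with at least 5 FPKM in the higher group are given first. Fpr1, a receptor for formylated bacterial peptides (chr17:17876471-17883940, build mm10), was at 0 and 0.231 FPKM in the controls and 59 and 137 in the AD model (log2 difference 6.36 ± 0.43 SE, adjusted p = 0.00934). Cxcl1, a neutrophil-attracting chemokine (chr5:90891241-90893115), was at 0.42 and 0.869 FPKM in the controls and 115 and 139.9 in the AD model (log2 difference 6.30 ± 0.24 SE, adjusted p = 0.00742). Both AD model libraries stood far above both controls in each of these genes. Rsad2, the antiviral enzyme viperin, was at 0.168 and 0.223 FPKM in the controls and 44.7 and 174 in the AD model (log2 difference 6.23 ± 0.65 SE, adjusted p = 0.0222). Its AD model libraries differed by more from each other than those of Cxcl1. Cxcl5, another neutrophil chemokine, was at 0 and 0.0546 FPKM in the controls and 79.7 and 57.7 in the AD model (log2 difference 6.07 ± 0.24 SE, adjusted p = 0.00742). Irf7, a transcription factor that amplifies type I interferon, was at 1.89 and 0.795 FPKM in the controls and 112 and 143 in the AD model (log2 difference 5.81 ± 0.31 SE, adjusted p = 0.00742). In Cxcl5 the first AD model library was the higher, in Irf7 the second.

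H2-Q6, a nonclassical MHC class I gene, was at 0.61 and 0.0244 FPKM in the controls and 86.1 and 48.7 in the AD model (log2 difference 5.68 ± 0.38 SE, adjusted p = 0.00886). Reads of the H2-Q genes may be shared between near-identical copies, so its level is uncertain. Acod1, which makes itaconate, was at 0 and 0.31 FPKM in the controls and 26.4 and 107 in the AD model, and Il1a, the cytokine interleukin 1 alpha, at 0.399 and 0.155 FPKM in the controls and 24.8 and 129 in the AD model. In both genes AD model replicate 2 was well above replicate 1, and their differences were 5.57 ± 0.67 (SE) and 5.51 ± 0.77 on the log2 scale. Cxcl10, an interferon-induced T cell chemokine, was at 1.91 and 1.6 FPKM in the controls and 77.2 and 179.9 in the AD model (log2 difference 5.43 ± 0.43 SE, adjusted p = 0.012). Marco, a scavenger receptor of macrophages, was at 0 and 0.37 FPKM in the controls and 40.3 and 59.3 in the AD model (log2 difference 5.41 ± 0.29 SE, adjusted p = 0.00742). Since the 10 were taken from the called genes, that their groups do not overlap follows from the choice.

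The 10 largest falls among called genes, chosen in the same way, were smaller in size. Gpr37l1, a receptor enriched in astrocytes (chr1:135160234-135167681), was at 127 and 142 FPKM in the controls and 12.2 and 12.4 in the AD model (log2 difference -3.35 ± 0.20 SE, adjusted p = 0.00786). Both pairs of replicates were close, and the groups were far apart. C1ql1, a secreted synaptic organiser, was at 24.7 and 14.5 FPKM in the controls and 1.04 and 1.23 in the AD model (log2 difference -3.23 ± 0.30 SE, adjusted p = 0.0175). Slco1c1, a thyroid hormone transporter of astrocytes and brain endothelium, was at 10.1 and 7.34 FPKM in the controls and 0.818 and 0.0424 in the AD model (log2 difference -2.81 ± 0.35 SE, adjusted p = 0.032). Neither gene's groups overlapped, although Slco1c1 was almost absent from AD model replicate 2.

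Lmod1, a leiomodin of smooth muscle, was at 48.8 and 34.2 FPKM in the controls and 6.42 and 3.13 in the AD model (log2 difference -2.92 ± 0.36 SE, adjusted p = 0.0323). Mustn1, a gene of musculoskeletal tissue, was at 35.1 and 22.2 FPKM in the controls and 3.39 and 1.56 in the AD model, and Myom1, which encodes the M-band protein myomesin, at 10.2 and 9.23 FPKM in the controls and 0.784 and 0.573 in the AD model. These 3 muscle-associated genes were lower in both AD model libraries. Fbln5, an organiser of elastic fibres, was at 20.5 and 35.2 FPKM in the controls and 3.93 and 2.5 in the AD model (log2 difference -2.75 ± 0.34 SE, adjusted p = 0.0322). Vtn, which encodes the adhesive protein vitronectin and is a pericyte marker in brain, was at 15.7 and 29.8 FPKM in the controls and 1.5 and 3.06 in the AD model (log2 difference -2.83 ± 0.40 SE, adjusted p = 0.0427). Itgbl1 was at 8.36 and 16.9 FPKM in the controls and 0.896 and 0.195 in the AD model. Tgfb3, a transforming growth factor beta ligand, was at 129 and 78.7 FPKM in the controls and 17.6 and 13.3 in the AD model (log2 difference -2.64 ± 0.32 SE, adjusted p = 0.0313).

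**Figure D2:**
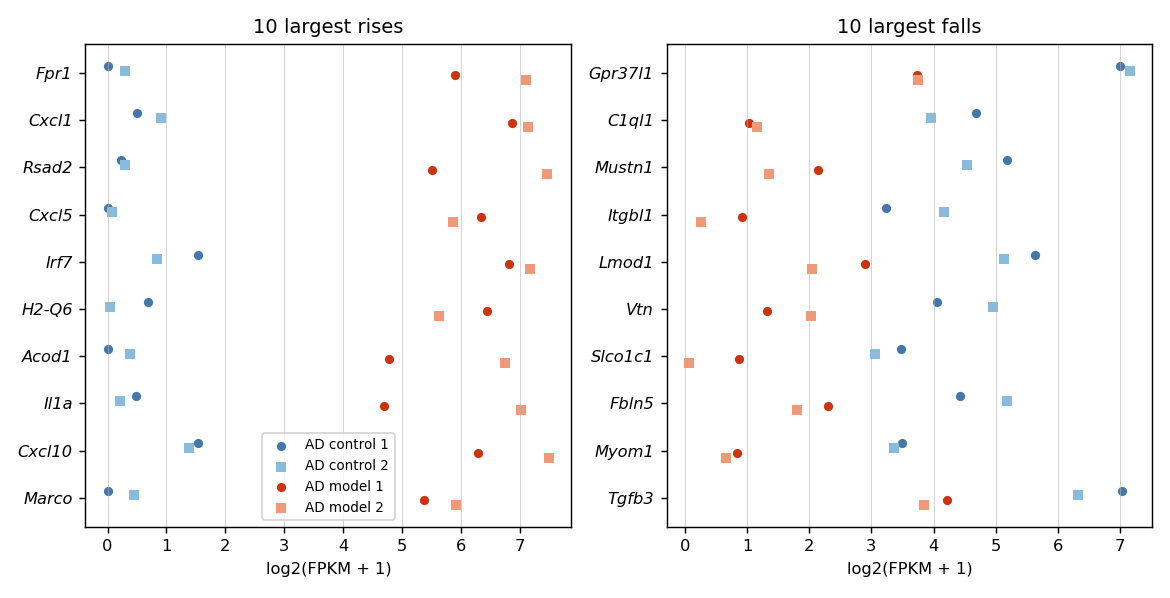
Level of the 10 largest rises (left) and 10 largest falls (right) in each library, log2(FPKM + 1). Blue marks the 2 controls and red the 2 AD model libraries, circles replicate 1 and squares replicate 2. The 2 colours do not overlap in any of the 20 genes, which follows from choosing them among called genes.

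Genes induced by interferon rose almost without exception. Of 33 interferon-stimulated genes that passed the filter, 32 were called higher and 0 lower, with a median difference of 3.78 against -0.03 over all genes tested. All 33 had a difference over both replicate gaps. The remaining gene, Ifi27l2a, was at 9.29 and 1.43 FPKM in the controls and 75 and 26.6 in the AD model, with AD model replicate 1 highest (adjusted p = 0.139, limma). With single libraries left out, the list's median lay between 3.48 (without AD control replicate 2) and 3.98 (without AD model replicate 1). Members with both controls under 1 FPKM, Rsad2 and Zbp1 among them, passed the filter only through the AD model libraries. Such members could only be higher, and they enter the counts and the median of this list. Ifit1, which binds viral RNA, was at 2.48 and 1.92 FPKM in the controls and 108 and 165 in the AD model (log2 difference 5.40 ± 0.28 SE, adjusted p = 0.00742), and Isg15, a ubiquitin-like protein, at 25.3 and 6.4 FPKM in the controls and 530.1 and 455 in the AD model (log2 difference 5.14 ± 0.63 SE, adjusted p = 0.0313). Zbp1, a sensor of Z-form nucleic acid, was at 0.635 and 0.808 FPKM in the controls and 47 and 36 in the AD model, and Trim30a, a ubiquitin ligase family member, at 2.59 and 2.79 FPKM in the controls and 49.2 and 57.1 in the AD model. Ifit3b was at 2.24 and 1.3 FPKM in the controls and 76.5 and 80.3 in the AD model, but its reads may be shared with Ifit3.

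Of the factors that carry the interferon signal, 4 of 26 were called higher and 0 lower, with a median of 0.36. The median lay between 0.22 (without AD model replicate 2) and 0.54 (without AD model replicate 1), and 9 were called in the 12-library fit. Among them were Irf7 and 2 factors that act together downstream of the type I interferon receptor. Stat2 was at 3.67 and 6.05 FPKM in the controls and 38.4 and 46.5 in the AD model (log2 difference 2.91 ± 0.28 SE, adjusted p = 0.0184) and Irf9 at 6.55 and 5.3 FPKM in the controls and 19.5 and 19.4 in the AD model (log2 difference 1.57 ± 0.20 SE, adjusted p = 0.0346). Both were higher in both AD model libraries, and Irf9 changed less. Socs3, a feedback inhibitor of cytokine receptors, overlapped between groups at 18.3 and 45.1 FPKM in the controls and 40.1 and 79.9 in the AD model. Among interferon-inducible GTPases, which attack vacuoles of intracellular pathogens, 9 of 14 were called higher and 0 lower, with a median of 3.00 (14 in the 12-library fit). With single libraries left out that median lay between 2.64 (without AD model replicate 2) and 3.45 (without AD model replicate 1). Gbp3 was at 2.74 and 1.81 FPKM in the controls and 65.1 and 75.3 in the AD model, Igtp at 5.09 and 3.95 FPKM in the controls and 64.5 and 72.5 in the AD model and Iigp1 at 0.369 and 1.01 FPKM in the controls and 31.3 and 52.5 in the AD model. Gbp5, at 0.119 and 0.238 FPKM in the controls and 6.48 and 26.8 in the AD model, was not called (adjusted p = 0.0655), and its AD model libraries were far apart. Gbp5 and Gbp9 were among the GTPase genes that passed the filter only through the AD model libraries and could only be higher.

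MHC class I presents peptides from inside the cell to T cells. Of 24 class I and peptide loading genes, 14 were called higher and 0 lower (median 2.34). With single libraries left out the median lay between 2.06 (without AD model replicate 2) and 2.43 (without AD model replicate 1). H2-Q5, H2-Q6 and H2-Q7 passed the filter only through the AD model libraries, so they could only be higher. B2m was at 411 and 381 FPKM in the controls and 2387 and 3338 in the AD model (log2 difference 2.83 ± 0.42 SE, adjusted p = 0.0464), and the classical heavy chain H2-D1 at 65 and 93.7 FPKM in the controls and 699.6 and 1474 in the AD model (log2 difference 3.69 ± 0.47 SE, adjusted p = 0.0346). Psmb8, a subunit of the immunoproteasome that cuts peptides for class I, was at 4.23 and 2.23 FPKM in the controls and 33.4 and 44.9 in the AD model (log2 difference 3.27 ± 0.32 SE, adjusted p = 0.0189). For all 3 the groups did not overlap and AD model replicate 2 was the highest library. In the class II list 2 of 9 genes were called higher, the co-stimulatory ligand Cd86 at 1.21 and 1.35 FPKM in the controls and 9.67 and 18.5 in the AD model and the protease Ctss at 67.8 and 52.5 FPKM in the controls and 350.0 and 474 in the AD model. In the 12-library fit 6 of the 9 were called higher and 1 lower. The class II chaperone Cd74 was at 2.53 and 1.59 FPKM in the controls and 5.3 and 10.3 in the AD model, which was not called (adjusted p = 0.121). Cd80, another co-stimulatory ligand, was lower, at 28.3 and 11 FPKM in the controls and 8.4 and 7.05 in the AD model. Its groups were apart by less than the gap between controls, and it was not called (adjusted p = 0.317, limma). Ctss is also a member of the microglia and lysosome lists below.

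Chemokines attract leukocytes. Of 11 CXC chemokines and receptors, 4 were called higher (Cxcl1, Cxcl2, Cxcl5 and Cxcl10) and 0 lower. Cxcl1, Cxcl2 and Cxcl5 passed the filter only through the AD model libraries, so they could only be higher. Cxcl2 was at 0.234 and 0.32 FPKM in the controls and 28.7 and 29.6 in the AD model (log2 difference 4.56 ± 0.19 SE, adjusted p = 0.00742), with both pairs of replicates close. The receptor Cxcr4 overlapped between groups at 21 and 11.2 FPKM in the controls and 26.6 and 5.17 in the AD model. Of 12 CC chemokines and receptors, 6 were called higher and 0 lower, with a median of 3.40 (10 in the 12-library fit). Ccl2, which draws monocytes, was at 11.3 and 10.1 FPKM in the controls and 422 and 539 in the AD model (log2 difference 5.35 ± 0.25 SE, adjusted p = 0.00742), and Ccl7, another monocyte chemokine, at 5.9 and 4.89 FPKM in the controls and 142 and 212 in the AD model (log2 difference 4.78 ± 0.28 SE, adjusted p = 0.00772). Ccl20 was listed at 0 in both controls and at 7.25 and 4.6 FPKM in the AD model. Like Ccl5, it passed the filter only through the AD model libraries.

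Of 20 NF-kB subunit and feedback genes, 3 were called higher (against 2.35% of genes tested) and 0 lower. The median was 0.92, and between 0.57 (without AD model replicate 2) and 1.18 (without AD model replicate 1) with single libraries left out. The 12-library fit called 12 higher. The 3 were Nfkbia, the inhibitor that holds NF-kB in the cytoplasm, at 24.2 and 21.5 FPKM in the controls and 110.2 and 219 in the AD model, Nfkbiz, a nuclear cofactor, at 3.83 and 3.5 FPKM in the controls and 27.8 and 31.6 in the AD model, and the kinase Ikbke at 1.49 and 1.19 FPKM in the controls and 8.85 and 11.1 in the AD model. All had a difference over both replicate gaps. Tnfaip3, the deubiquitinase A20, was at 4.48 and 1.46 FPKM in the controls and 12.2 and 13.1 in the AD model and was not called (adjusted p = 0.0984). Of 25 interleukins and TNF family genes, 8 were called higher and 0 lower, and no more than 4 with any single library left out, against 15 in the 12-library fit. Il1b was at 0.508 and 0.641 FPKM in the controls and 15.7 and 51.6 in the AD model (log2 difference 4.23 ± 0.56 SE, adjusted p = 0.0352), its antagonist Il1rn at 0.645 and 0.46 FPKM in the controls and 14.1 and 6.84 in the AD model (log2 difference 2.81 ± 0.36 SE, adjusted p = 0.0346), and the TNF receptor Tnfrsf1b at 11.8 and 9.49 FPKM in the controls and 76 and 170.1 in the AD model (log2 difference 3.31 ± 0.43 SE, adjusted p = 0.0346). AD model replicate 2 was higher than replicate 1 for Il1b and Tnfrsf1b and lower for Il1rn. Csf2, the granulocyte-macrophage growth factor, was called from a mean of 16.5 reads per library and was listed at 0 in both controls. Csf2, Csf3, Il1a, Il1b and Il1rn passed the filter only through the AD model libraries, so they could only be higher.

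Of 24 pattern recognition receptors, which sense microbial and damage signals, 11 were called higher and 0 lower (median 2.03). The 12-library fit called 22 higher, and 10 of the inflammasome and cell death list. Clec7a, the beta-glucan receptor dectin-1, was at 2.98 and 5.77 FPKM in the controls and 74.1 and 90.8 in the AD model (log2 difference 4.00 ± 0.32 SE, adjusted p = 0.012). Fpr2 was listed at 0 in both controls and at 9.3 and 7.93 FPKM in the AD model. Fpr1, Fpr2 and Marco passed the filter only through the AD model libraries, so they could only be higher. The same holds for Casp4 and Naip5 of the inflammasome and cell death list. Cd14, the lipopolysaccharide co-receptor, was at 18.3 and 93.1 FPKM in the controls and 182 and 464 in the AD model, with the 2 replicates of each group far apart (adjusted p = 0.203). In the inflammasome and cell death list 4 of 21 genes were called higher, the caspases Casp1 at 1.9 and 3.6 FPKM in the controls and 19.9 and 43.5 in the AD model and Casp4 at 0.832 and 0.535 FPKM in the controls and 9.1 and 11.5 in the AD model, the DNA sensor Aim2 at 1.3 and 0.872 FPKM in the controls and 5.24 and 6.37 in the AD model and Naip5 at 0.43 and 0.401 FPKM in the controls and 3.14 and 2.93 in the AD model. None of the 4 was called with any single library left out.

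The values of microglia and macrophage markers stand beside every immune result above. In an unsorted culture a change in the number of cells of a type and a change in RNA per cell cannot be told apart. Of 19 markers, all of which passed the filter, 4 were called higher (Ctss, Itgam, Spi1 and Ptprc) and 0 lower, with 15 having a higher difference over both gaps (14 called higher in the 12-library fit). Their summed level was 1291 and 1838 FPKM in the controls and 3974 and 6601 in the AD model, and Lyz2 made up 54.0% of the sum over the libraries. Spi1, the myeloid transcription factor PU.1, was at 8.38 and 8.39 FPKM in the controls and 34.8 and 65.1 in the AD model, and Ptprc, the leukocyte antigen CD45, at 0.919 and 0.859 FPKM in the controls and 3.98 and 5.94 in the AD model. Cx3cr1 was at 8.64 and 1.38 FPKM in the controls and 1.23 and 0.0854 in the AD model, P2ry12 at 1.07 and 0.06 FPKM in the controls and 1.09 and 0.432 in the AD model and Tmem119 at 18.6 and 7.12 FPKM in the controls and 7.16 and 2.18 in the AD model. These 3 markers of resting microglia, chosen after their values were seen, were not called. Whether cell makeup has a part in the immune results was not tested.

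Most markers of neutrophils and lymphocytes did not pass the filter. Of 11 neutrophil markers 2 passed the filter and both were called higher, Csf3r at 0.369 and 0.381 FPKM in the controls and 5.28 and 6.38 in the AD model and S100a8 at 0.0872 and 0 FPKM in the controls and 3.1 and 3.64 in the AD model, while Elane, Mpo and Retnlg were at 0 in all 4 libraries. Of 13 lymphocyte markers 2 passed and were called higher, Ccl5 at 0.694 and 0.318 FPKM in the controls and 16.8 and 37.3 in the AD model and Cd79b at 0 and 0.0356 FPKM in the controls and 1.94 and 1.69 in the AD model. These 4 genes passed the filter only through the AD model libraries, so they had to be higher there. The CD3 chain genes Cd3d, Cd3e and Cd3g were at 0 in all 4 libraries, as were Cd8a, Gzma and Nkg7. The summed level of the lymphocyte list was 1.73 and 0.647 FPKM in the controls and 19.3 and 39.2 in the AD model, of which Ccl5 made up 90.3%. Of 13 neuronal markers 2 passed, Tubb3 at 129 and 73.4 FPKM in the controls and 55.3 and 77.4 in the AD model and Stmn2 at 10.5 and 4.31 FPKM in the controls and 6.03 and 1.06 in the AD model, and of 10 ependymal and choroid plexus markers 2 passed, Foxj1 at 11.4 and 9.55 FPKM in the controls and 7.63 and 2.68 in the AD model and Clic6 at 1.36 and 0.247 FPKM in the controls and 7.59 and 0.393 in the AD model. None of these 4 was called.

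Complement tags microbes and debris for removal. Of 14 complement genes 1 was called, C3ar1, the receptor of the C3a fragment, at 6.15 and 16.2 FPKM in the controls and 94.9 and 191 in the AD model (log2 difference 3.61 ± 0.55 SE, adjusted p = 0.0492). C3, the central component, was at 2.68 and 7.13 FPKM in the controls and 84.4 and 417 in the AD model, and was not called (adjusted p = 0.0573), with AD model replicate 2 far above replicate 1. In 12 of the 14 the difference was higher and over both gaps. Of 19 disease-associated microglia genes Clec7a alone was called. Gpnmb was at 30.4 and 57 FPKM in the controls and 246 and 552 in the AD model (adjusted p = 0.0601). Of 27 lysosomal genes 2 were called higher, Ctss and the galactosidase Gla at 7.68 and 8.03 FPKM in the controls and 27.9 and 50.1 in the AD model, and 1 lower, Ctsk at 39.4 and 26 FPKM in the controls and 8.79 and 7.81 in the AD model, a collagen-cutting protease. In the 12-library fit 11 complement genes were called higher and 1 lower, 8 disease-associated microglia genes higher, and 14 lysosomal genes higher and 1 lower.

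Of 12 pan-reactive astrocyte genes 3 were called higher and 0 lower, Lcn2 at 15.7 and 11.2 FPKM in the controls and 259 and 535 in the AD model (log2 difference 4.70 ± 0.42 SE, adjusted p = 0.0158), Steap4 at 0.365 and 2.27 FPKM in the controls and 35.9 and 77.1 in the AD model (log2 difference 4.67 ± 0.56 SE, adjusted p = 0.0309) and Cxcl10. The list's median was 0.17, and between 0.07 (without AD control replicate 2) and 0.74 (without AD control replicate 1) with single libraries left out. Timp1, another member, was at 1215 and 254 FPKM in the controls and 472 and 657 in the AD model, with the controls further apart than the groups. Gfap, the intermediate filament by which reactive astrocytes are known, was at 222 and 297 FPKM in the controls and 125 and 155 in the AD model, lower in both AD model libraries but not called (adjusted p = 0.236). Of 11 genes of the A1 list, once proposed as a neurotoxic state, 6 were called higher (Gbp2, H2-D1, H2-T23, Iigp1, Psmb8 and Srgn) and Fbln5 lower. Most of the 6 are interferon or MHC genes, so they are not separate from the counts above. Of 11 genes of the A2 list 0 were called by limma (3 at an unadjusted p under 0.05) and 0 by voom on recovered reads, a method that weights each value by its read count, while 3 were called higher in the 12-library fit. In that list 3 of 11 were higher with a difference over both gaps, against 17.3% of all genes tested. Ptx3 was among them, at 5.69 and 11.9 FPKM in the controls and 56.3 and 216 in the AD model.

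Markers of mature astrocytes were measured in all 4 libraries, with 28 of 30 passing the filter. 0 were called higher and 3 lower, Gpr37l1, Slco1c1 and Aldoc, a glycolytic enzyme of astrocytes, at 27.7 and 29.5 FPKM in the controls and 7.92 and 5.54 in the AD model (log2 difference -1.95 ± 0.23 SE, adjusted p = 0.0309). In 14 the difference was lower and over both gaps (against 18.1% of genes tested), in 3 higher (against 17.3%), and the median was -0.84. The largest difference in the list was a rise, that of Slc7a11 (log2 difference 3.60 ± 0.63 SE), which was not called (adjusted p = 0.0655, limma). Slc7a11 is also a member of the Nrf2 and glutathione list below. The 12-library fit called 11 lower and 1 higher. The summed level was 2217 and 2913 FPKM in the controls and 1086 and 1389 in the AD model, of which Cst3 made up 50.9%. The glutamate transporter Slc1a2 was at 2.39 and 4.81 FPKM in the controls and 6.32 and 9.73 in the AD model and the glutamine synthetase Glul at 86.5 and 118 FPKM in the controls and 142 and 151 in the AD model, while Slc1a3 was at 19.1 and 22.2 FPKM in the controls and 10.4 and 11 in the AD model, and none of the 3 was called. They were chosen after their values were seen.

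The enzymes of O-GlcNAc cycling did not separate the groups. Ogt, which adds the sugar, was at 10.0 and 22.7 FPKM in the controls and 18.3 and 19.9 in the AD model, and Mgea5, also known as Oga, which removes it, at 17.9 and 40.6 FPKM in the controls and 23.6 and 46.1 in the AD model. Both overlapped, with log2 differences of 0.32 ± 0.40 (SE) and 0.28 ± 0.51. Both were lower in replicate 1 than in replicate 2 of each group. Of 8 genes of the list 0 were called by limma, with 0 at an unadjusted p under 0.05. In the list of amyloid processing and clearance 0 of 21 were called by limma, with 3 at an unadjusted p under 0.05. Voom called 0 in both lists. Called in the 12-library fit were 1 O-GlcNAc gene, higher, and 1 amyloid gene higher and 3 lower. App was at 89.7 and 124 FPKM in the controls and 73.8 and 113 in the AD model, and its groups overlapped. This is a value of the mouse gene, and how reads of a transgene were placed is not given in the sources used here, so it is no check of the genotype. Bace1, the beta-secretase, was at 15.3 and 14.3 FPKM in the controls and 7.4 and 9.5 in the AD model, lower in both AD model libraries but not called (adjusted p = 0.163). Apoe, a lipid carrier of astrocytes, was at 752 and 1646 FPKM in the controls and 485 and 669 in the AD model, apart between groups by less than the gap between controls.

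Of 13 oligodendrocyte lineage genes that passed the filter, 3 were called higher and 2 lower, and all 13 had a difference over both gaps. Numbers in the 12-library fit were 7 higher and 4 lower. The lineage factors Olig1 at 145 and 85.4 FPKM in the controls and 21.8 and 20.6 in the AD model and Olig2 at 33 and 24.9 FPKM in the controls and 5.19 and 7.58 in the AD model were called lower. Those called higher included the myelin genes Cldn11 at 8.84 and 15.8 FPKM in the controls and 60.4 and 73.8 in the AD model and Ermn at 0.7 and 1.33 FPKM in the controls and 5.88 and 7.9 in the AD model. Of the 8 genes not called, 6 were higher and 2 lower, the latter Pdgfra at 3.05 and 1.97 FPKM in the controls and 1.22 and 0.669 in the AD model and Cspg4 at 42.1 and 14.5 FPKM in the controls and 4.28 and 1.79 in the AD model, both of progenitors. Their summed level was 305 and 269 FPKM in the controls and 429 and 502 in the AD model.

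**Figure D3:**
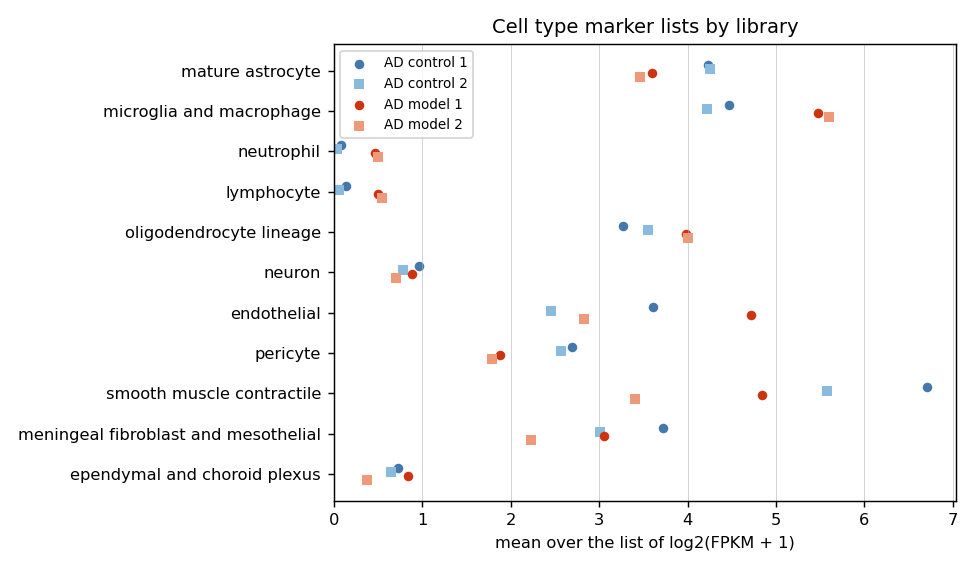
Mean over each cell type marker list of log2(FPKM + 1), in each of the 4 libraries (blue controls, red AD model, circles replicate 1, squares replicate 2). Microglia and oligodendrocyte lists lie higher and astrocyte, pericyte and smooth muscle lists lower in both AD model libraries, while the endothelial list is lower in replicate 2 of both groups.

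Of 16 smooth muscle contractile genes Lmod1 alone was called, and lower (11 lower in the 12-library fit). All 16 had a lower mean in the AD model, 10 of them by more than both replicate gaps. Their median was -2.15, which became -1.32 without AD model replicate 2 and -2.73 without AD model replicate 1. Myh11, the smooth muscle myosin, was at 62.4 and 28.4 FPKM in the controls and 6.54 and 3.15 in the AD model (adjusted p = 0.0573), and Acta2, smooth muscle actin, named after its value was seen, at 3129 and 1481 FPKM in the controls and 650.2 and 171 in the AD model (adjusted p = 0.178). All 16 were also lower in replicate 2 than in replicate 1 of both groups. Of 7 pericyte genes 2 were called lower, Vtn and Pdgfrb, the platelet-derived growth factor receptor, at 86.8 and 71.2 FPKM in the controls and 21.6 and 21 in the AD model (log2 difference -1.84 ± 0.22 SE, adjusted p = 0.0302), against 4 lower and 1 higher in the 12-library fit. In Pdgfrb both pairs of replicates were close. Anpep, another member, went the other way, at 3.19 and 4.74 FPKM in the controls and 12.5 and 13.6 in the AD model. It was not called (adjusted p = 0.0503, limma). Of the 7 pericyte genes, 4 were lower and 1 higher by more than both gaps (against 18.1% and 17.3% of genes tested). Voom called 1 lower and 1 higher.

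Of 20 collagen genes 0 were called by limma, with 12 at an unadjusted p under 0.05. All 20 had a lower mean in the AD model, 14 by more than both gaps, and 19 were lower in replicate 2 of both groups. The median was -1.31, which became -0.87 without AD model replicate 2 and -1.86 without AD control replicate 2. Col1a2 was at 411 and 308 FPKM in the controls and 137 and 83.6 in the AD model and Col4a1, of basement membranes, at 853 and 602 FPKM in the controls and 267 and 221 in the AD model. Of 19 elastic fibre and calcification genes Fbln5 and Loxl2, a lysyl oxidase at 214 and 221 FPKM in the controls and 59.5 and 72.5 in the AD model (log2 difference -1.71 ± 0.25 SE, adjusted p = 0.0441), were called lower. Eln, elastin itself and also named after its value was seen, was at 96.1 and 7.11 FPKM in the controls and 0.629 and 0.0814 in the AD model, with the controls far apart (adjusted p = 0.145). Of 10 markers of meningeal fibroblasts and mesothelium 0 were called (7 at an unadjusted p under 0.05), with 8 lower by more than both gaps. The median of these 10 was -1.43, which became -0.93 without AD model replicate 2 and -1.87 without AD model replicate 1. Of 16 scar proteoglycan and tenascin genes 0 were called (8 at an unadjusted p under 0.05), and 8 were lower by more than both gaps. Over all genes tested 18.1% were lower by more than both gaps. Voom called 0 in the collagen, meningeal and scar lists. Called lower in the 12-library fit were 13 collagen, 10 elastic fibre, 6 meningeal and 8 scar genes. Among proteases 1 of 20 was called, Mmp8, a collagenase of neutrophils, higher at 0.699 and 0.063 FPKM in the controls and 21.8 and 12.8 in the AD model (log2 difference 3.72 ± 0.37 SE, adjusted p = 0.0197), against 3 higher and 3 lower in the 12-library fit.

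Tgfb3 was the only one of 25 TGF-beta and BMP genes called, and lower. Of 22 IGF system and growth factor genes 2 were called lower, Igfbp6, an IGF binding protein, at 54.7 and 74.5 FPKM in the controls and 15.1 and 7.46 in the AD model and the neurotrophin Bdnf at 8.53 and 9.15 FPKM in the controls and 3.14 and 2.36 in the AD model. Of 14 YAP target and CCN genes 0 were called by limma (6 at an unadjusted p under 0.05), with Ctgf at 869.9 and 997 FPKM in the controls and 369 and 245 in the AD model. Of 16 astrocyte lineage and Notch genes 0 were called (5 at an unadjusted p under 0.05). In that list 9 were lower by more than both gaps, against 18.1% of all genes tested. Hey1 was among them, at 24.2 and 23.5 FPKM in the controls and 10.9 and 6.19 in the AD model. Voom called 0 in both lists. In the 12-library fit 3 TGF-beta and BMP genes were called higher and 2 lower, and 5 IGF system, 6 YAP target and 4 lineage genes lower.

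Of 16 iron handling genes 2 were called higher, Lcn2, which binds siderophores, and Trf, transferrin, at 1.2 and 1.81 FPKM in the controls and 9.03 and 10.6 in the AD model (log2 difference 2.12 ± 0.23 SE, adjusted p = 0.0242). Of 9 genes of arginine, itaconate and nitric oxide 2 were called higher, Acod1 and Gch1, which makes the cofactor of nitric oxide synthases, at 0.814 and 0.945 FPKM in the controls and 6.24 and 9.79 in the AD model (log2 difference 2.23 ± 0.27 SE, adjusted p = 0.0308). Over all genes tested 2.35% were called higher, 17.3% were higher by more than both gaps and 18.1% lower by more than both gaps. Nos2, the inducible synthase, was at 1.37 and 0.127 FPKM in the controls and 8.1 and 31.6 in the AD model, with AD model replicate 2 well above replicate 1 (adjusted p = 0.0875). Of 22 Nrf2 and glutathione genes 0 were called by limma (13 at an unadjusted p under 0.05) and 1 by voom, and 14 were higher by more than both gaps, among them the cystine transporter Slc7a11 at 0.922 and 0.351 FPKM in the controls and 9.37 and 35.7 in the AD model. Of 21 cholesterol synthesis genes 0 were called by limma (11 at an unadjusted p under 0.05) and by voom, and 14 were lower by more than both gaps, among them Hmgcs1 at 28.1 and 33.4 FPKM in the controls and 13.2 and 10.7 in the AD model. Glycolysis (20 genes), oxidative phosphorylation (36) and prostaglandin synthesis (15) gave 0 calls by limma, with 4, 0 and 5 genes at an unadjusted p under 0.05, and voom called 1 gene of prostaglandin synthesis. In the 12-library fit 8 iron genes were called higher and 1 lower, 6 arginine, 13 Nrf2 and 4 prostaglandin genes higher, 11 cholesterol genes lower, and 3 glycolytic genes higher and 2 lower.

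Of 32 cell cycle and DNA replication genes 1 was called, and higher, Rrm2, a subunit of ribonucleotide reductase, at 11.5 and 8.43 FPKM in the controls and 42.3 and 31.8 in the AD model (log2 difference 1.79 ± 0.26 SE, adjusted p = 0.0441). The median was 0.99, which became 0.59 without AD model replicate 1 and 1.49 without AD model replicate 2, and 22 were higher by more than both gaps. Over all genes tested 2.35% were called higher and 17.3% were higher by more than both gaps. The 12-library fit called 21 of this list higher. At the same time 29 of the 32 were lower in replicate 2 than in replicate 1 of both groups. Ccnd1, cyclin D1, was at 122 and 16 FPKM in the controls and 148 and 16.9 in the AD model, so that its replicate gaps exceeded any difference between groups. The unfolded protein response (22 genes), senescence (14) and immediate early gene (19) lists gave 0 calls by limma and by voom, with 2, 1 and 2 genes at an unadjusted p under 0.05. In the 12-library fit the first gave 2 higher and 2 lower, the second 1 lower and the third 2 higher. Atf3, a stress-induced factor, was at 5.57 and 16.4 FPKM in the controls and 43.5 and 87.1 in the AD model (adjusted p = 0.106).

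**Figure D4:**
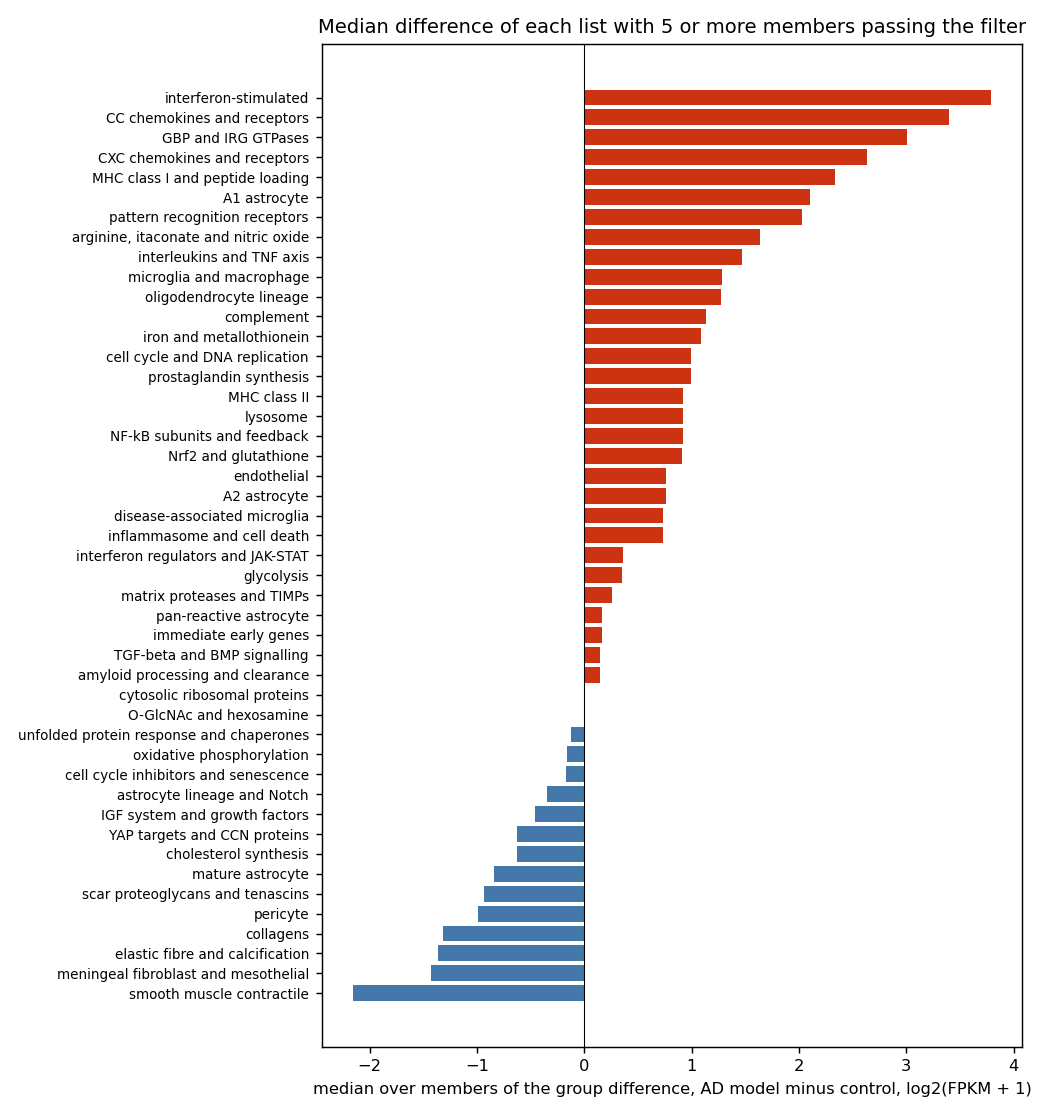
Median over members of the group difference (AD model minus control, log2(FPKM + 1)) for each list with at least 5 members passing the filter. Interferon-stimulated genes have the highest median, 3.78, and smooth muscle contractile genes the lowest, -2.15.

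In 8346 genes a replicate gap exceeded the group difference. Of these, 1197 had a gap of at least 1 on the log2 scale, and in 790 of them replicate 2 was the lower in both groups, in 243 the higher in both, and in 164 the 2 groups went opposite ways. Inhba, a subunit of activin, was at 88.3 and 4.37 FPKM in the controls and 54.4 and 3.44 in the AD model, and Col15a1, a collagen of basement membrane zones, at 33.4 and 0.97 FPKM in the controls and 13.3 and 0.943 in the AD model. In both genes replicate 2 was far below replicate 1 in each group. Has2, which makes hyaluronan, was at 17.3 and 0.565 FPKM in the controls and 21.3 and 1.87 in the AD model, and Grem1, an antagonist of BMPs, at 8.06 and 0.54 FPKM in the controls and 33.3 and 1.44 in the AD model. Il11, a cytokine, was at 32.6 and 1.32 FPKM in the controls and 34.7 and 15.8 in the AD model, and Ptgs2, the inducible cyclooxygenase, at 108 and 8.06 FPKM in the controls and 155 and 92.7 in the AD model. In the last 2 the low value was that of control replicate 2.

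Of 15 endothelial markers 0 were called by limma and by voom, and 0 were at an unadjusted p under 0.05. In that list 12 overlapped, against 54.5% of all genes tested, and 13 were lower in replicate 2 of both groups. Pecam1, the junction protein CD31 and a member of the list, was at 18.1 and 8.12 FPKM in the controls and 64.6 and 17.7 in the AD model. Apln, Esm1 and Cd93 are not in the list and were named for their large gaps between the AD model libraries. Apln, the ligand of the apelin receptor, was at 39 and 15.2 FPKM in the controls and 268 and 12.1 in the AD model. Esm1, a proteoglycan of endothelium, was at 52.4 and 8.03 FPKM in the controls and 36.1 and 1.7 in the AD model, and Cd93 at 26.3 and 4.33 FPKM in the controls and 51.5 and 2.86 in the AD model. H19, an imprinted noncoding RNA, differed most between the AD model libraries, at 119.7 and 89.5 FPKM in the controls and 37.9 and 0.313 in the AD model. Gapdh, often used as a reference gene, was at 1.6 and 29.8 FPKM in the controls and 3.41 and 3.34 in the AD model, with control replicate 2 far above the others. It has many processed copies in the genome whose reads may be divided in ways not given here, so its level is uncertain. All 36 cytosolic ribosomal protein genes overlapped between groups, with a median difference of 0.00 (-0.33 without AD control replicate 2 and 0.33 without AD control replicate 1), and all 36 were lower in replicate 2 of both groups.

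**Figure D5:**
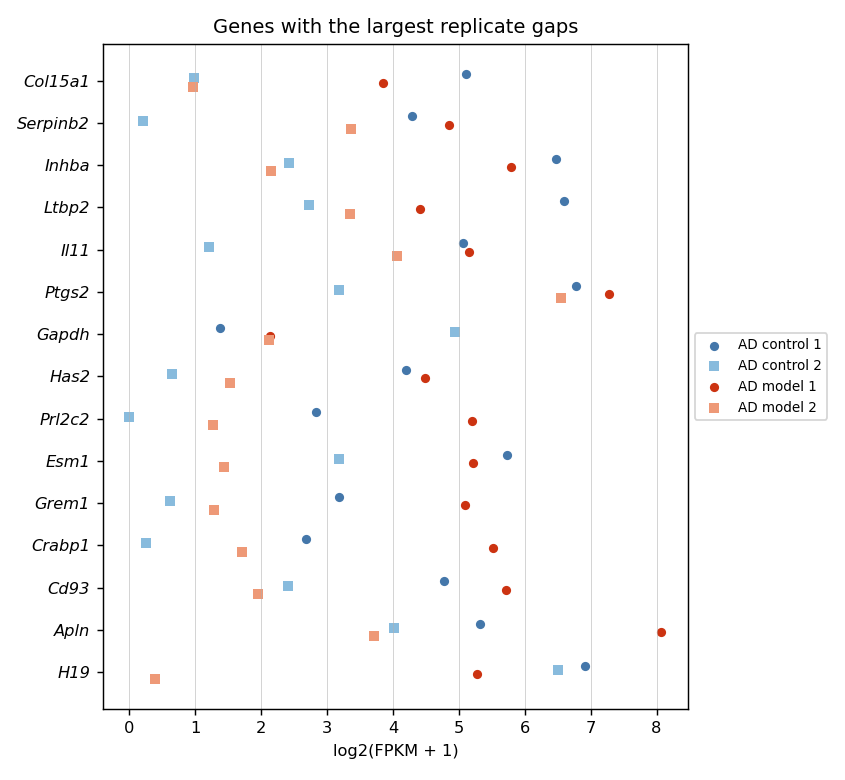
Level in each library, log2(FPKM + 1), of genes whose replicate gap was among the largest of either group and exceeded the group difference (blue controls, red AD model, circles replicate 1, squares replicate 2). In most of the 15 genes both squares lie left of both circles, whereas Gapdh has 1 square, control replicate 2, on the right.

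Among the most abundant genes with a difference over both gaps, B2m alone was called. Fth1, the heavy chain of the iron store ferritin, was at 1817 and 3525 FPKM in the controls and 6983 and 16601 in the AD model, the highest of these, with each library of the AD model above both controls (adjusted p = 0.282). Lyz2, lysozyme of myeloid cells, was at 522 and 957 FPKM in the controls and 2189 and 3734 in the AD model, and the mitochondrial mt-Cytb at 1859.7 and 2022 FPKM in the controls and 1249.5 and 1333 in the AD model. The most abundant overlapping genes included mt-Co1 at 2801 and 3514 FPKM in the controls and 3379 and 3778 in the AD model, Eef1a1, an elongation factor, at 2486 and 1756 FPKM in the controls and 2371 and 1782 in the AD model, and Actb at 1530.3 and 866 FPKM in the controls and 1582 and 875 in the AD model.

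A second experiment of the series exposed wild-type astrocytes from mice aged 2 months to amyloid-beta 1-42 at 20 µM for 72 h (73 h in the label of 1 sample), with 2 controls of its own. The difference between the 2 effects was tested as a contrast of a limma fit over all 12 libraries. Its shared spread may be too small for the AD groups. The effect in the AD model was above that of amyloid-beta exposure in 213 of 14014 genes (1.52%) and below it in 648 (4.62%). Of the 10 largest rises 0 differed between the experiments by this test, with adjusted p-values from 0.066 to 0.806. Fpr1, for example, was at 0.357 and 0.391 FPKM in those controls and 94.3 and 55.4 after exposure. Of the 10 largest falls 3 differed. Gpr37l1 was at 24.2 and 27.5 FPKM and 12.3 and 6.96 after exposure, C1ql1 at 5.46 and 5.28 and 3.85 and 3.42, and Slco1c1 at 1.35 and 1.47 and 0.342 and 0.0648. These 3 were picked among the largest falls of the AD model, and the same AD model values enter the contrast, so its direction is not independent of the choice. For Slco1c1 and C1ql1 the exposure controls were also too low for log2(FPKM + 1) to fall by as much as in the AD model, which does not hold for Gpr37l1. The experiments also differ in the age of the mice, so that model and age cannot be told apart.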

How the data were processed

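Total RNA of cultured mouse astrocytes was sequenced on an Illumina instrument, per the labels' protocols, with build mm10 per the submitters' processing notes. How reads were aligned, counted and shared between gene copies is not given in the labels. Values are FPKM for 54532 genes, as the authors deposited them. Multiplied by gene length, 100% of them lay within 0.1 of whole reads, and the recovered totals were 16418852 to 18705309 over all 12 libraries.

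The 12911 genes that reached 1 FPKM in 2 or more of the 4 libraries were put on the log2(FPKM + 1) scale. Limma 3.58.1 (R 4.3.3) was run on these 4 libraries alone with an intensity trend, 2 residual and 2.90 prior degrees of freedom, two-sided, with Benjamini-Hochberg adjustment over all genes tested at 0.05. The added 1 shrinks differences of low genes. An exact permutation test of 2 against 2 cannot go below p = 0.333. Tested on simulated data, the fit recovered nearly all genes made to differ, but its false calls exceeded the nominal share, most of them in short genes with a mean under 20 reads, where a trend on FPKM does not see counting noise. A minimum of 20 reads was therefore added as an alternative. Of the 364 calls 2, Csf2 and Gm23205, fall under it. The spread added in the simulation was the same for all genes and independent between libraries, unlike the replicate gaps seen here. The genes made to differ were given large changes and had many reads. Their recovery therefore does not show how often smaller changes, or changes in genes with few reads, were found.

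Named genes were the 10 largest rises and 10 largest falls among called genes with at least 5 FPKM in the higher group, up to 4 members per list by p plus the one with the largest replicate gap, 8 genes per group with the largest replicate gaps, 6 abundant genes per class, and Ogt, Mgea5, App, Apoe and Gfap, and some items the rule names are not reported here. Isg15 and a few members singled out in the text fall outside this rule. The 50 lists and the comparison were chosen with earlier results of these data known. Where 1 symbol had several identifiers, the most abundant was used. Promoter sequences are from RefSeq (GRCm38.p6), and 9431 of the tested genes matched by symbol. The other 8 libraries entered only the comparison with amyloid-beta exposure and an alternative fit.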

Additional observations from a re-analysis of the deposited data

Results flagged for a closer look

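3 genes, picked among the largest falls of the AD model, differed between the AD model and amyloid-beta exposure by a test of the difference itself (limma contrast over 12 libraries, adjusted over 14014 genes). The effect in the AD model minus that of exposure was -1.96 for Gpr37l1 (adjusted p = 0.0116), -2.77 for C1ql1 (adjusted p = 0.00636) and -1.80 for Slco1c1 (adjusted p = 0.0239), on the log2 scale. The same AD model values enter the contrast, so its direction is not independent of the choice. The spread is shared by all 12 libraries and may be too small for the AD groups. For C1ql1 and Slco1c1 the exposure controls were too low for log2(FPKM + 1) to fall by as much as in the AD model.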

How the results depend on the processing

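Scaling by median of ratios, quantile normalization, pseudocounts of 0.1 and 0.5, a filter at 5 FPKM, a robust variance prior, voom on recovered reads and a mean of at least 20 reads (chosen after seeing the data, 414 calls, 362 of the 364 among them) kept the counts of calls within 1.5 times. Genes higher and lower numbered 1354 and 1054 with all 12 libraries sharing the spread, which may be too small for the AD groups. They numbered 76 and 2 when a log2 change of at least 1 was tested. With no filter they numbered 0 and 0 (3083 at an unadjusted p under 0.05). With single libraries left out they ranged from 0 to 99 and from 0 to 5, the lowest without AD model replicate 2, and 0 of 84 called genes named by the rule kept the call in all 4 such fits. No named gene that was called reversed its direction. Separated groups numbered 9756 with no filter and 3626 at 5 FPKM, and genes with a replicate gap over the difference 19391 and 5192, because different numbers of genes were tested. The AD effect was below that of amyloid-beta in 389 genes at 5 FPKM.

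Same-numbered libraries deviated together (correlation of the 2 replicate gaps 0.58 over genes), but with 2 pairs and no label that ties the numbers they share only a number. With the replicate number as a block, 1141 genes were higher and 765 lower, and the AD effect was above that of amyloid-beta in 410 genes. The 364 genes called without the block were called with it too. Beyond the filter at 1 FPKM no minimum number of reads was set in the main fit. With 2 libraries per group small differences could not be detected.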
